A study of Mus musculus with 6 samples.

Results

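Laminin chain genes were examined in NCU10K cells, an immortalized mouse neural crest line, after Nedd4 knockdown. The 9 genes are Lama1, Lama2, Lama3, Lama4 and Lama5 for the alpha chains, Lamb1, Lamb2 and Lamb3 for the beta chains and Lamc1 for a gamma chain, out of 19933 genes that could be named on the arrays. They were taken by name, each through the probeset that carries its symbol alone, and each of the 9 genes had 1 such probeset. Cells received Nedd4 siRNA or control siRNA with Lipofectamine RNAimax, and RNA was harvested 48 h later from 3 separate experiments per siRNA. Each RNA was hybridised to its own Affymetrix mouse gene array. The methods describe a single Nedd4 Stealth siRNA and a low GC control siRNA, with no rescue on the arrays, so loss of Nedd4 and other effects of that siRNA cannot be told apart. The cells of both groups were grown in DMEM with foetal calf serum, and the arrays measure mRNA and not laminin protein.

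Laminins are large glycoproteins of basement membranes. Each is a trimer of an alpha, a beta and a gamma chain joined through a long coiled coil. The alpha chain ends in globular domains that bind integrins and dystroglycan on the cell surface. Chains of a class can stand in for each other, so the set of chain genes that a cell transcribes sets which trimers it can make. Neural crest cells migrate along laminin-rich matrix, and their Schwann cell descendants lay down a laminin-containing basal lamina around axons.

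Of the 9 laminin chain genes, 1 had a changed mRNA after Nedd4 knockdown, and that was Lamb2. Lamb2 encodes the beta chain that in mice is enriched at the neuromuscular synapse and in the glomerular filter of the kidney, and its mRNA rose 1.43-fold (95% interval 1.2 to 1.7). The other 8 genes did not pass the test, and for each of them the 95% interval of the log2 fold change lay within −0.37 to 0.36. The RNA came from whole cultures, in which fewer cells of a type and less RNA per cell cannot be told apart. The deposited log2 values were fitted with limma, all 28440 probesets entered the Benjamini-Hochberg adjustment, and a gene passed at an adjusted p under 0.05. By this rule 16.1% of all probesets were called, 8.14% higher and 7.96% lower, against 11.1% of the laminin chain genes (1 higher, 0 lower). At an unadjusted p under 0.05 the count was also 1 of 9, against 7200 of all 28440 probesets. The median log2 fold change was 0.03 over the 9 genes and −0.013 over all probesets. The median size of the change, with its sign ignored, was 0.13 over the 9 genes and 0.11 over all probesets. With 9 genes, 1 call is close to what the background share would give, so the count is not a result about the family.

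Lamb2 read 9.81, 9.88 and 9.74 on the log2 scale in Nedd4 siRNA arrays 1, 2 and 3, against 9.36, 9.49 and 9.04 in control siRNA arrays 1, 2 and 3. Every Nedd4 siRNA array lay above every control siRNA array, and control siRNA array 3 was the lowest of the 6. The mean was 9.81 ± 0.070 in Nedd4 siRNA cells and 9.30 ± 0.23 in control siRNA cells (SD, n = 3 arrays each), so that the wider spread was among the controls. The log2 fold change of Lamb2 was 0.51 (SE 0.11, adjusted p = 0.00747) from limma. On the 3 arrays against 3, the exact permutation test (two-sided) of Lamb2 gave p = 0.1, which is the minimum this design can reach. Under the methods' t-test, which takes the spread of each probeset from its own 6 values, Lamb2 did not pass (adjusted p = 0.133). That test called 7.50% of all probesets and 0 of the 9 laminin chain genes, and its unadjusted p for Lamb2 was 0.0213. The residual SD of Lamb2 was 0.171, the highest of the 9 genes and above the median of 0.117 over all probesets. Groups that do not overlap were seen for 1 of the 9 laminin genes, Lamb2, and for 28.3% of all probesets. The rise of Lamb2 was of ordinary size for a called gene: the median log2 fold change of the 2314 probesets called higher was 0.47, and 40.3% of them rose by more than Lamb2.

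**Figure D1:**
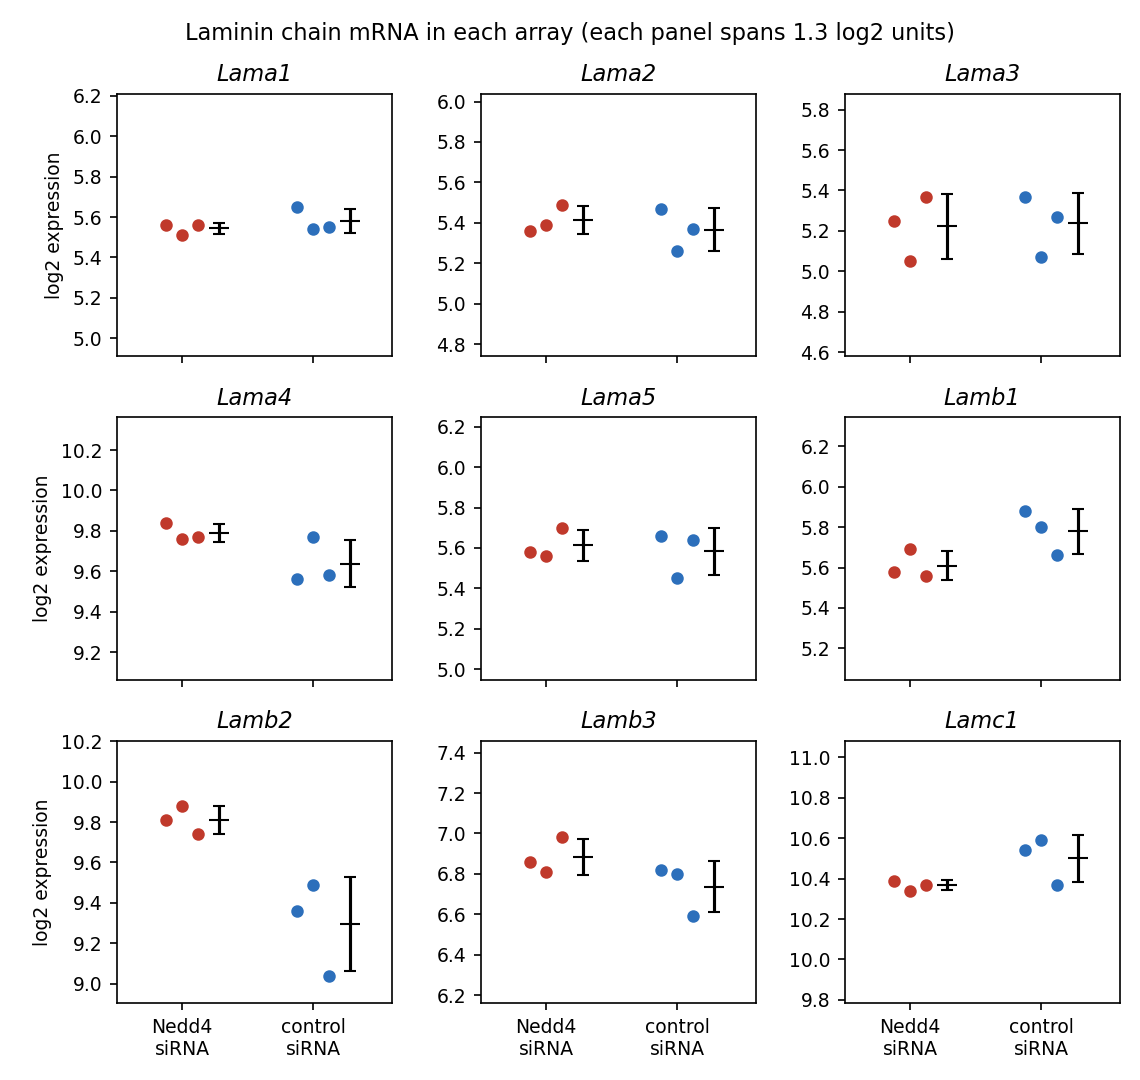
Log2 expression of the 9 laminin chain genes in each array, with Nedd4 siRNA (red) left of control siRNA (blue); points are arrays 1 to 3 from left to right and black bars the mean ± SD of 3 arrays. Only for Lamb2, at 9.74 to 9.88 with Nedd4 siRNA and 9.04 to 9.49 with control siRNA, do the points of the groups not overlap.

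Neither of the other beta chain genes passed the test. Lamb1, the widely expressed beta chain of embryonic basement membranes, read 5.58, 5.69 and 5.56 in Nedd4 siRNA arrays, against 5.88, 5.80 and 5.66 in control siRNA arrays. Its groups overlapped slightly, with Nedd4 siRNA array 2 above control siRNA array 3. The log2 fold change of Lamb1 was −0.17 (SE 0.092, 95% interval −0.37 to 0.03, adjusted p = 0.292). Lamb3, whose product joins the Lama3 chain in the adhesion of epidermis to its basement membrane, read 6.86, 6.81 and 6.98 in Nedd4 siRNA arrays, against 6.82, 6.80 and 6.59 in control siRNA arrays. Here too the groups overlapped, by 0.01 between Nedd4 siRNA array 2 and control siRNA array 1. The log2 fold change of Lamb3 was 0.15 (SE 0.096, 95% interval −0.062 to 0.36, adjusted p = 0.415).

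The 3 pairs of beta chain genes were set against each other within each array, which asks whether chains that take the same place in the trimer changed equally. The difference in log2 signal between Lamb1 and Lamb2, less its mean over the controls, was −0.71, −0.67 and −0.66 in Nedd4 siRNA arrays 1, 2 and 3, against 0.037, −0.17 and 0.14 in control siRNA arrays 1, 2 and 3. The Nedd4 siRNA arrays agreed within 0.05 on this difference, and no control array came near them. In the log2 fold changes this is a gap of −0.68 for Lamb1 less Lamb2. Lamb1 lay in the dimmer 50% of probesets, and whether its probeset stood above background was not tested. For Lamb1 less Lamb3 the gap was −0.32, with Nedd4 siRNA arrays at −0.32, −0.16 and −0.46, against control siRNA arrays at 0.017, −0.043 and 0.027. For Lamb2 less Lamb3 the gap was 0.37, with Nedd4 siRNA arrays at 0.39, 0.51 and 0.20, against control siRNA arrays at −0.020, 0.13 and −0.11. The groups did not overlap in any of the 3 pairs. Each pair gave p = 0.1 by the exact permutation test (two-sided), or 0.433 after adjustment over the 13 pairs of chains compared. With 3 arrays against 3 the minimum is 0.1, so no pair could pass whatever its values. The test therefore cannot decide whether the chains changed unequally, and the differences are a description. The pairs with Lamb2 also share the values in which Lamb2 alone did not overlap.

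**Figure D2:**
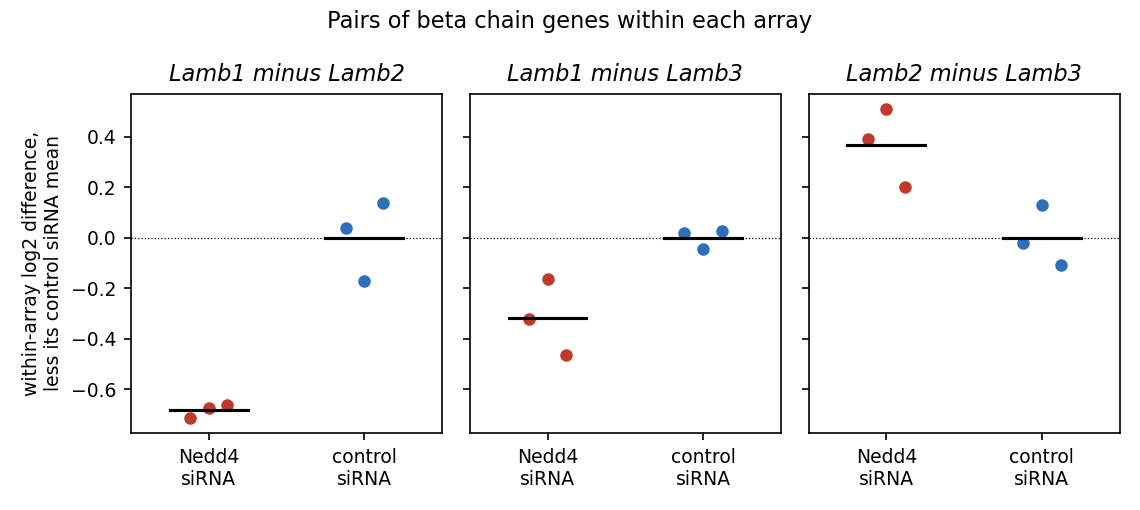
Difference in log2 signal between pairs of beta chain genes within each array, less the mean of that difference over control siRNA arrays, with Nedd4 siRNA (red) left of control siRNA (blue); points are arrays and lines group means of 3 arrays. Lamb1 less Lamb2 lies between −0.71 and −0.66 with Nedd4 siRNA, below all control arrays.

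The promoter windows of Lamb2 and Lamb1 are printed because they belong to the beta chain gene that rose and to the one with the largest gap to it. The sequences are RefSeq's for GRCm38.p6 and run from 250 bases before to 50 after the gene's start. Lamb2 lies at chr9:108479612-108479911 and Lamb1 at chr12:31265043-31265342, both on the plus strand. Capitals mark matches, on either strand, to the TATA box TATAAA, the CCAAT box CCAAT or the GC box GGGCGG, of which no match overlaps another.
Lamb2 promoter: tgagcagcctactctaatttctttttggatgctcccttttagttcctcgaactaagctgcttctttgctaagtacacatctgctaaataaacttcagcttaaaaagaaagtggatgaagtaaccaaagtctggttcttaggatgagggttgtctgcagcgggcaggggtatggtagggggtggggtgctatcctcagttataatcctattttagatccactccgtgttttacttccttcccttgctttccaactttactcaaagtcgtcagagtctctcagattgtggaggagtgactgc
Lamb1 promoter: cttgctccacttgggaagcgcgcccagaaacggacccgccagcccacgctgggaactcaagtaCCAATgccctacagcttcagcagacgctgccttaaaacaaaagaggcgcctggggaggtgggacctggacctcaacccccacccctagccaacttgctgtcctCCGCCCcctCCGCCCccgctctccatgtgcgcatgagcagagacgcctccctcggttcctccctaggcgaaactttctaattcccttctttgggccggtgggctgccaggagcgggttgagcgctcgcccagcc
The Lamb2 window held 44.0% G and C with 4 CpG dinucleotides and no match to any of these motifs. The Lamb1 window held 63.7% G and C with 18 CpG, 1 CCAAT and 2 GGGCGG on the opposite strand. Over all 32851 promoter windows of this length, the median was 52.7% G and C with 7 CpG. Of those windows 13.6% held TATAAA, 37.4% CCAAT and 35.7% GGGCGG. The arrays do not bear on which factors act at these windows.

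None of the 5 alpha chain genes passed the test. Lama4, the alpha chain of vessel walls and of the connective sheath inside peripheral nerves, read 9.84, 9.76 and 9.77 in Nedd4 siRNA arrays, against 9.56, 9.77 and 9.58 in control siRNA arrays. Its groups met at control siRNA array 2, which reached the level of the Nedd4 siRNA arrays. The log2 fold change of Lama4 was 0.15 (SE 0.091, 95% interval −0.045 to 0.35, adjusted p = 0.352), the largest estimate among the alpha chains. Lama2, the alpha chain of muscle and Schwann cell basal lamina whose loss causes muscular dystrophy in mice, read 5.36, 5.39 and 5.49 in Nedd4 siRNA arrays, against 5.47, 5.26 and 5.37 in control siRNA arrays. Its groups were intermixed, and the log2 fold change was 0.047 (SE 0.091, 95% interval −0.15 to 0.24, adjusted p = 0.85). Lama5, the alpha chain of many epithelial and endothelial basement membranes, read 5.58, 5.56 and 5.70 in Nedd4 siRNA arrays, against 5.66, 5.45 and 5.64 in control siRNA arrays. Its highest and its lowest array differed by 0.25, and the log2 fold change was 0.03 (SE 0.093, 95% interval −0.17 to 0.23, adjusted p = 0.912).

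Lama1 and Lama3 had estimates below 0. Lama1, the alpha chain of the earliest embryonic basement membranes, read 5.56, 5.51 and 5.56 in Nedd4 siRNA arrays, against 5.65, 5.54 and 5.55 in control siRNA arrays. With a residual SD of 0.0476 it was the most even of the 9 genes, and its log2 fold change was −0.037 (SE 0.084, 95% interval −0.22 to 0.15, adjusted p = 0.876). Lama3, the alpha chain of epidermal anchoring, read 5.25, 5.05 and 5.37 in Nedd4 siRNA arrays, against 5.37, 5.07 and 5.27 in control siRNA arrays. Array 2 was the lowest in both groups, and the log2 fold change of Lama3 was −0.013 (SE 0.11, 95% interval −0.25 to 0.23, adjusted p = 0.971). Over the 10 pairs of alpha chain genes, the gaps between log2 fold changes ran from −0.19 for Lama1 less Lama4 to 0.12 for Lama4 less Lama5, and the groups overlapped in every pair.

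Lamc1, the gamma chain of most laminin trimers, without which mouse embryos form no basement membrane, read 10.39, 10.34 and 10.37 in Nedd4 siRNA arrays, against 10.54, 10.59 and 10.37 in control siRNA arrays. The Nedd4 siRNA arrays lay within 0.05 of each other, and control siRNA array 3 fell among them while controls 1 and 2 lay higher. The log2 fold change of Lamc1 was −0.13 (SE 0.090, 95% interval −0.33 to 0.063, adjusted p = 0.436). Lamc3, a further gamma chain gene that the list of members does not hold, was added after its values were seen. It read 5.92, 5.75 and 6.02 in Nedd4 siRNA arrays, against 6.17, 5.92 and 6.03 in control siRNA arrays, and its log2 fold change was −0.14 (SE 0.10, 95% interval −0.36 to 0.078, adjusted p = 0.466). The chains of Lama4, Lamb2 and Lamc1 are known to assemble with each other, and their log2 fold changes side by side were 0.15, 0.51 and −0.13.

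**Figure D3:**
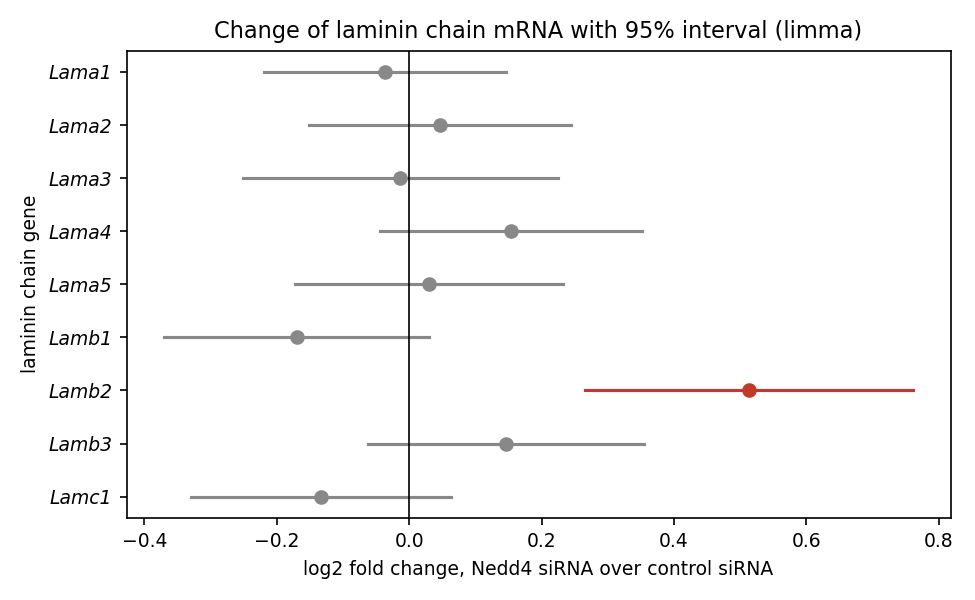
Log2 fold change of the 9 laminin chain genes, Nedd4 siRNA over control siRNA; each point is the estimate from limma and each line its 95% interval (3 arrays a group), red for the gene past an adjusted p of 0.05 and grey for the others. The interval of Lamb2 runs from 0.27 to 0.76, while those of the other 8 genes include 0.

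The deposited table gives no detection call, so whether a laminin probeset stood above background was not tested. When the 25% of probesets with the lowest mean were left out, 7 of the 9 genes stayed and Lama2 and Lama3 did not. When the dimmer 50% were left out, 4 stayed, namely Lama4, Lamb2, Lamb3 and Lamc1. Between arrays of a group, the median residual SD was 0.093 over the 9 genes against 0.117 over all probesets. Control siRNA array 1 gave the highest control value for 6 of the 9 genes, and control siRNA array 3 gave it for none. Nedd4 siRNA array 2 gave the lowest Nedd4 siRNA value for 6 of the 9.

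The genes whose profile over the 6 arrays was most like that of Lamb2 were named by the distance between profiles, each less its own mean, over the 19933 genes. Glud1, the mitochondrial glutamate dehydrogenase, lay closest (Euclidean distance 0.0713 log2 units over 6 arrays), followed by Lhfpl2 (0.0833) and Rab11fip5, an effector of recycling endosomes (0.0856). Glud1 read 9.82, 9.93 and 9.71 in Nedd4 siRNA arrays, against 9.34, 9.49 and 9.08 in control siRNA arrays. In all of these genes and in Lamb2, array 2 was the highest and array 3 the lowest of each group. The genes closest to Lamb1, the member with the smallest p among those with a lower mean, were Dnase1 (0.0187), Ing3 (0.0485) and the chaperone adaptor gene Stip1 (0.0523). Their log2 fold changes of −0.16, −0.18 and −0.18 did not pass the test either. Such likeness describes these arrays and implies no shared function.

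Genes for what laminins bind and assemble with were counted by lists, against the background of 16.1% called over all probesets. That background was higher among bright probesets: with the dimmest 50% left out, 4745 of 14218 were called. Of 14 laminin receptor genes, 2 were higher, 5 lower and 7 did not pass. Dag1, which encodes dystroglycan, read 9.56, 9.84 and 9.55 in Nedd4 siRNA arrays, against 10.90, 11.10 and 10.95 in control siRNA arrays, and its log2 fold change was −1.33 (SE 0.10, adjusted p = 5.54e-06). The integrin genes Itga1 (−1.01, adjusted p = 2.29e-05) and Itga6 (−0.64, adjusted p = 0.000339) fell, as did Mcam (−0.86, adjusted p = 6.5e-05), an adhesion molecule that binds the Lama4 chain. Itga3 (0.59, adjusted p = 0.00123) and Sdc4 (0.62, adjusted p = 0.0011), a syndecan, rose. The methods' t-test called 4 of these 14 genes, all lower, and neither Itga3 (adjusted p = 0.0504) nor Sdc4 (adjusted p = 0.0543). Of 26 measured basement membrane partners 3 were higher and 4 lower, or 26.9%. Smoc2, a matricellular calcium-binding protein, rose with 1.25 (adjusted p = 8.19e-06), and Nid1, which links laminin to collagen IV, fell with −0.67 (adjusted p = 0.000336). Col4a5 (0.52) and Smoc1 (0.34) rose, and Frem2 (−0.80), Tinagl1 (−0.56) and Col18a1 (−0.46) fell. When the dimmest 50% of probesets were left out, 13 partners stayed, and Nid1 and Smoc1 were removed by that filter. Of those that stayed 7 were called, among them Col4a1 and Sparc, which did not pass over all probesets. Under the methods' t-test the list had 4 higher and 2 lower, without Tinagl1 (adjusted p = 0.0803) and Col18a1 (adjusted p = 0.0844) and with Sparc (adjusted p = 0.0202). Of 13 measured genes of the dystroglycan complex, 0 were higher and 2 lower, or 15.4%. Those lower were Sntb1 (−1.49, adjusted p = 2.78e-06) and Drp2 (−0.77, adjusted p = 0.000168), both for adaptors on the cytoplasmic side of the membrane. Of 14 measured enzymes that build matriglycan, the laminin-binding sugar of dystroglycan, 2 were higher and 2 lower, or 28.6%. These were Pomt1 (0.53) and B4gat1 (0.41), which rose, and Dolk (−0.57) and Pomgnt2 (−0.44), which fell. With the dimmest 50% left out, 8 of 12 receptors and 7 of 13 partners were called. So were 4 of 11 genes of the dystroglycan complex and 4 of 13 matriglycan enzymes. Whether the share of any of these lists differs from the background was not tested.

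**Figure D4:**
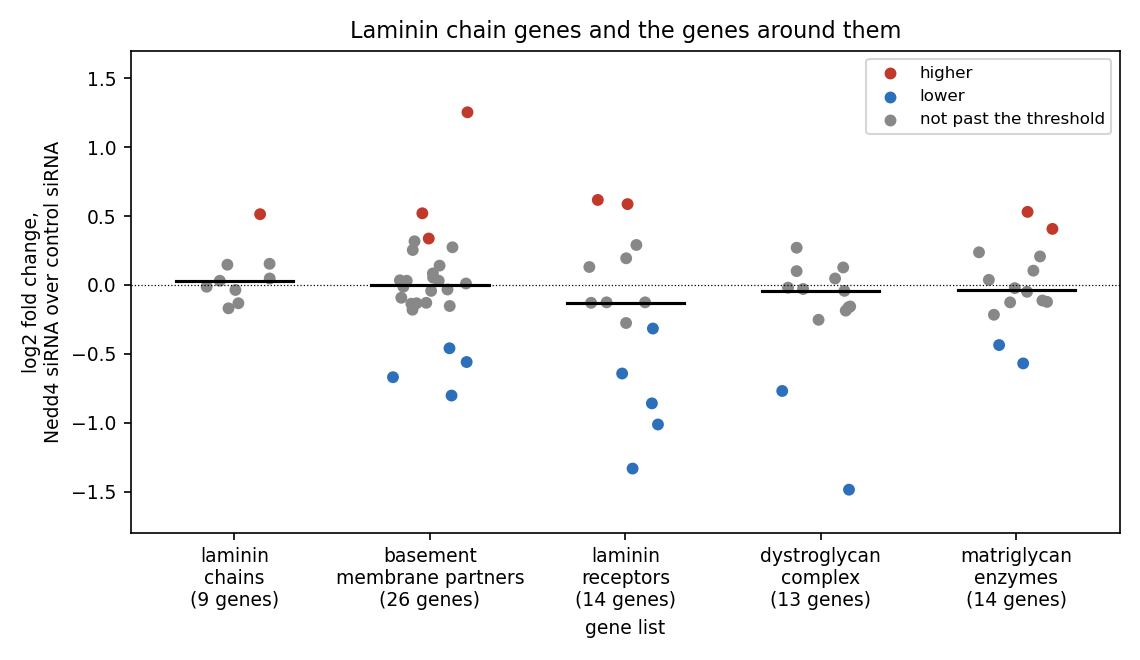
Log2 fold change, Nedd4 siRNA over control siRNA, of the laminin chain genes and of the genes of 4 lists around them; genes are points, in red where called higher, in blue where called lower and in grey where not called, and black lines are medians. The medians are 0.03 for the laminin chains and −0.13 for their receptors.

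Nedd4 itself read 10.45, 10.94 and 10.68 in Nedd4 siRNA arrays, against 12.24, 12.35 and 12.34 in control siRNA arrays, and its log2 fold change was −1.62 (SE 0.12, adjusted p = 3.16e-06). Markers of the labelled cell type shifted with the knockdown as well. The counts of markers stand beside 16.1% of all probesets called, or 4745 of 14218 with the dimmest 50% left out. Only 1 of the 10 neural crest markers lay in that dimmer part. Whether the share of any marker list differs from the background was not tested. Of 10 neural crest markers 2 were higher, Sox9 (0.66) and Twist1 (0.31), and 5 lower, Erbb3 (−1.14), Foxd3 (−0.54), Tfap2a (−0.51), Sox10 (−0.43) and Snai2 (−0.33). Of these calls the methods' t-test did not make those of Sox10 (adjusted p = 0.088), Snai2 (adjusted p = 0.107) and Twist1 (adjusted p = 0.123). Their summed signal was between 13.26 and 13.38 on the log2 scale in Nedd4 siRNA arrays and between 13.66 and 13.71 in control siRNA arrays. Of 9 measured Schwann cell markers 2 were higher, Fabp7 (1.2) and Egr2 (0.9), and 2 lower, Cnp (−1.58) and Mbp (−0.27). Of these calls the methods' t-test did not make that of Egr2 (adjusted p = 0.057). Their summed log2 signal was 13.72 to 13.75 in Nedd4 siRNA arrays and 13.61 to 13.69 in control siRNA arrays. The higher sum does not mean that most of these markers rose, as their median log2 fold change was −0.16. Fabp7, a bright member, read 12.02, 11.95 and 12.04 in Nedd4 siRNA arrays, against 10.89, 10.89 and 10.63 in control siRNA arrays. Fibroblast markers were higher in 2 of 8 and lower in 0, at a summed log2 signal of 13.33 to 13.44 in Nedd4 siRNA arrays and 13.14 to 13.15 in control siRNA arrays. Most of that sum was Postn, which averaged 13.22 in Nedd4 siRNA arrays and 12.98 in control siRNA arrays. Postn was not called by limma (adjusted p = 0.081) but was by the methods' t-test (adjusted p = 0.0432). The fibroblast markers called by limma were Pdgfra (0.81) and Dcn (0.58). Mural and smooth muscle markers were higher in 1 of 8 and lower in 0. The higher gene was Des (0.36), which the methods' t-test did not call (adjusted p = 0.108). None of 10 epithelial or 8 endothelial markers passed in either direction. The epithelial markers had mean log2 levels of 5.28 to 6.97, and 9 of the 10 lay in the dimmer 50% of probesets, as did 8 of the 8 endothelial markers. The part of such shifts in the rise of Lamb2 was not tested.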

How the data were processed

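RNA of NCU10K cells was measured on 1 Affymetrix GeneChip Mouse Gene array per replicate. In Partek Genomics Suite (Partek 6.5, from the submitters' processing notes) the authors corrected background by RMA, corrected for probe GC content, summarized probes by their mean, and deposited log2 expression values of 28440 probesets to 2 decimals. The scans were not used here, and whether arrays were scaled to each other is not given in the sources used here. Array medians lay between 6.28 and 6.35 and their interquartile ranges between 3.06 and 3.33. Precision is limited by the small number of arrays. The methods place each RNA in a well of a multiwell plate and the series design in a larger dish, a difference left unresolved. The replicates are separate experiments, as the design states.

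Probesets were named from GEO's platform annotation where it gives 1 symbol (21780 of 28440). The 9 laminin probesets were matched by Entrez ID to RefSeq, where Lamb2 is also an older name of Lamc1. The test was two-sided in limma 3.58.1 (R 4.3.3), by lmFit and eBayes with no covariate, and was tested on simulated data. The methods' t-test is the ANOVA that the methods name, with the siRNA as its factor. Exact tests ran in SciPy 1.17.1 with pandas 2.3.3 and NumPy 2.4.6 under Python 3.11.15, and Matplotlib 3.10.9 drew the figures. Members and gene lists were chosen with earlier results of these data known. Named besides the members were Nedd4, up to 6 genes per list of partners by p, changed neural crest markers and the 3 nearest profiles to Lamb2 and to Lamb1. Lamc3, the further partners Smoc1, Sparc and Col4a1, and the named Schwann cell, fibroblast and mural markers were named outside this rule. The 16 alternatives left out each array in turn, dropped the dimmest 25% or 50% of probesets, kept only probesets with 1 symbol, averaged the probesets of a gene, centred arrays on the median, applied quantile normalization, added the replicate block, used trended robust eBayes, lowered the threshold to 0.01, or ran the methods' t-test.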

Additional observations from a re-analysis of the deposited data

How the results depend on the processing

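Lamb2 was the laminin gene called, and no other was, under 15 of the 16 alternatives. The exception was the methods' t-test, which called 0 of 9, with an adjusted p of 0.133 for Lamb2. Its log2 fold change was 0.50 with quantile normalization and 0.54 with median centring. The other settings that kept all arrays left it at 0.51 by design. They could change only its p or the threshold, as Lamb2 has 1 probeset. Over the limma settings that kept all arrays, its adjusted p was 0.00386 to 0.00907. On leaving out each array, the log2 fold change ran from 0.39 without control siRNA replicate 3 to 0.61 without control siRNA replicate 2 (adjusted p 0.00438 to 0.033). The direction of genes near 0 did not hold. Lama3 was at 0.011 with quantile normalization and 0.010 with median centring and ran from −0.097 to 0.073 on leaving out each array, Lama2 from −0.0067 to 0.098 and Lama5 from −0.037 to 0.068. The sign was kept by the other 6 genes under every alternative that kept them in the table.

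Called probesets numbered 4579, against 2134 with the methods' t-test, 2881 at an adjusted p under 0.01 and 2962 to 4312 on leaving out each array, the lowest without Nedd4 siRNA replicate 1. The methods' t-test called 4 of the laminin receptors in place of 7 and 1 matriglycan enzyme in place of 4. Of the dystroglycan complex 4 genes were called in place of 2 without the dimmest 50% of probesets and with the mean of a gene's probesets. The causes were not tested. The numbered repeats were not taken as pairs: the correlation of same-numbered arrays was −0.012, 0.472 and −0.013, and arrays 1 and 3 of either group correlated best with another number. With the replicate block 4962 probesets were called, and of the laminin genes 1, Lamb2 (adjusted p = 0.00422).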
